A study of Mus musculus with 12 samples.

Results

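Aquaporins and glycerol channels are small membrane proteins that let water, and in some members glycerol, pass through the cell membrane. The 6 genes Aqp1, Aqp3, Aqp4, Aqp7, Aqp8 and Aqp11 are described here, out of 47643 genes in the count table of a mouse intestine RNA-seq study. They were chosen as a named family because Aqp3 was lower in knockout than in wild-type intestine on a high-fat diet, so the knockout against wild-type values on that diet are given as a description, with no test. The study crossed loss of Ppara in the intestinal epithelium (ΔIE) with diet, and each of the 4 groups had 3 libraries. The group KO HFD was PparaΔIE mice on a 60% high-fat diet (HFD), and WT HFD was Pparafl/fl mice on the same diet. The group KO chow was PparaΔIE mice on chow, and WT chow was Pparafl/fl mice on chow. All were C57BL/6 males of 7 to 8 weeks, fed their diet for 10 days, and total RNA of the intestine was sequenced with a stranded kit. The wild-type mice also carried the floxed allele, so loxP sites were common to all groups. The labels name neither the Cre line, the deleted exons nor the intestinal segment, and they leave unsaid whether replicate libraries are different animals. The p-values therefore measure only how these samples spread, and that spread may be technical.

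Aquaporins fall into water channels, such as Aqp1 and Aqp4, aquaglyceroporins, such as Aqp3 and Aqp7, and less typical members, such as Aqp11. Triglyceride breakdown releases glycerol, which enters or leaves cells through aquaglyceroporins and is phosphorylated by glycerol kinase. PPARA is a transcription factor switched on by fatty acids; as a dimer with RXR it binds repeats of the hexamer AGGTCA spaced by 1 base. In mouse liver it is known to control genes of fatty acid oxidation and of glycerol metabolism, Aqp3 among them.

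Aqp3 and Aqp7 are neighbours, and the sequences before their start sites are shown because both genes were higher on HFD than on chow in wild-type intestine (values are given further on). Each line holds the 250 bases before a RefSeq start site (GRCm38.p6), read 5′ to 3′ on the strand of the gene. Capitals mark TATAAA for Aqp3 and TGACCT, which is AGGTCA on the other strand, for Aqp7. The Aqp3 sequence lies at chr4:41098184-41098433 on the minus strand, and the Aqp7 sequence at chr4:41048137-41048386 on the minus strand.
Aqp3: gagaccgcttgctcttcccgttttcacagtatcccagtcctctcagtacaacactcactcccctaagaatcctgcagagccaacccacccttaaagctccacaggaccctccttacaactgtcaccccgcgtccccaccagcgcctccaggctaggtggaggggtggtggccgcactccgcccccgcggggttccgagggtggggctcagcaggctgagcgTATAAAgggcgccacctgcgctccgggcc
Aqp7: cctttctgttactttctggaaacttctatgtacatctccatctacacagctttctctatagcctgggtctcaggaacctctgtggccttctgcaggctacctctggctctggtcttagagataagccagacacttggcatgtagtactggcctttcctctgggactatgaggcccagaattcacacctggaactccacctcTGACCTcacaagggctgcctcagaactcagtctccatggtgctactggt

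Both strands were searched for AGGTCA, for AGGTCANAGGTCA with up to 2 mismatches, and for TATAAA, in the 250 bases before 32851 RefSeq start sites. AGGTCA was in 14% of them, the repeat in 3.24% and TATAAA in 12.4%. The AGGTCA hexamer is also part of the repeat, so matches to both can overlap. In the Aqp3 sequence TATAAA began 29 bases before the start site, and no AGGTCA and no repeat match was in this window. In the Aqp7 sequence shown, AGGTCA was 49 bases before the start site, inside a repeat match with 2 mismatches at 56 bases. A second RefSeq start site of Aqp7 had AGGTCA at 101 and 223 bases before it, with repeat matches at 101 and 230 bases. Its window overlaps the first, and the hexamer at 223 bases and the repeat at 230 bases are the same letters as those at 49 and 56 bases from the first start site. The Aqp11 window held AGGTCA at 230 bases and no repeat match, and the Aqp1 and Aqp8 windows held none of the motifs. Windows of 5 of the 6 genes were used. A match describes letters only.

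The deposited table held estimated counts, and library totals ran between 33621040 and 53959405. Levels are given as CPM, counts scaled to a common normalized library size, and differences as log2 fold changes with their standard error (SE) from edgeR's quasi-likelihood fit of all 12 libraries. A gene passed the test at a Benjamini-Hochberg adjusted p under 0.05 over 17602 tested genes. The spread within groups was uneven, with a biological coefficient of variation of 0.140 in KO HFD, 0.146 in WT HFD, 0.152 in KO chow and 0.0583 in WT chow. Ppara was at 11.4, 11.1 and 17.3 CPM in KO HFD, against 39.3, 36.6 and 33.7 CPM in WT HFD (log2 fold change -1.46, SE 0.21, edgeR adjusted p = 0.0308). The groups did not overlap, and the call held in 11 of 21 other fits and in 4 of the 12 that left out 1 library, those without WT HFD 3, KO HFD 3, KO chow 1 or KO chow 2. On chow Ppara was at 8.42, 15.6 and 12.98 CPM in KO, against 19.2, 18.1 and 22.0 CPM in WT, groups that did not overlap but did not pass the test (log2 fold change -0.68, SE 0.21, edgeR adjusted p = 0.251). Reads of undeleted exons count towards Ppara, as do reads from any cells that kept the gene. These cannot be told apart here, so a level above 0 in KO does not measure intact transcript in the epithelium. The 8 intestinal epithelial markers were all measured and summed to between 16390 and 22295 CPM in every library. They did not all move alike. In HFD against chow by edgeR, 1 rose and 3 fell in KO, and 1 rose and 2 fell in WT, Fabp2 being the one that rose. Of all tested genes 3.44% rose and 4.76% fell in KO, and 6.80% rose and 6.57% fell in WT.

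The 10 smooth muscle markers summed to 99.8 to 130 CPM in KO HFD, 38.7 to 77.6 CPM in WT HFD, 53.8 to 70.5 CPM in KO chow and 70.8 to 74.0 CPM in WT chow. The 4 genes Lct, Gata4, Onecut2 and Ada of the proximal small intestine were combined into a score, the mean of their centred log2 levels. This score was -0.27, 0.85 and 0.67 in KO HFD, 0.89, 1.12 and 0.03 in WT HFD, -1.13, 0.34 and 0.32 in KO chow, and -0.93, -0.86 and -1.02 in WT chow. The muscle list therefore separated KO from WT on HFD, and the proximal score separated HFD from chow in WT. Within the score, Lct was at 76.2 to 256 CPM in WT HFD and 2.01 to 2.75 CPM in WT chow. Gata4, Ada and Onecut2 each overlapped between these groups, with Onecut2 at 0.191 to 0.422 CPM on HFD and 0.398 to 0.579 CPM on chow. By edgeR 1 of 4 rose there, where 6.80% of all tested genes rose, and the separation in WT rested largely on Lct. The 4 distal ileum markers summed to 4786 to 5563 CPM in WT HFD and 4805 to 5200 CPM in WT chow, and these overlapped. Their median log2 fold change there was 0.07, and 1 of 4 rose by edgeR, where 6.80% of all tested genes rose. What the proximal score measures in the tissue was not tested. The part of the muscle list or the proximal score in the aquaporin differences was examined only by adding each score to the fit. Diet in WT and the proximal score went together, as did genotype on HFD and the muscle score. A fit that holds both cannot fully tell them apart, so a call lost in it does not show what the call depended on. The values are given where they moved a result. Each call was also repeated in 21 other fits, 12 of which left out 1 library.

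Of the 6 genes, 5 had enough counts to be tested, and Aqp8 did not. Aqp8, a water and hydrogen peroxide channel known from colon, liver and pancreas, had 0 counts in 9 libraries. It had 1 count in each of WT HFD 1, WT HFD 2 and WT chow 1. A floor of 3 counts equalled 0.0568 to 0.0917 CPM in these libraries, so Aqp8 stayed below that level in all 12, and no fold change is given. Counting floors cover counting error only.

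Aqp3, an aquaglyceroporin of the basolateral membrane in many epithelia, was low on chow and much higher in wild-type intestine on HFD. Aqp3 lies at chr4:41092722-41098183 on the minus strand (mm10, ENSMUSG00000028435). It was at 2.53, 3.54 and 5.93 CPM in KO HFD, against 17.8, 13.7 and 12.6 CPM in WT HFD. These levels came from 91 to 194 counts per library in KO HFD and from 462 to 717 counts in WT HFD. Every KO HFD library was below every WT HFD library. The fitted log2 fold change was -1.88 (SE 0.29), which is 3.69-fold lower in KO. This is the difference that chose the genes, and no test is attached to it. It was -1.86 with the muscle score in the fit and -1.78 with the proximal score.

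On chow Aqp3 was at 0.800, 1.69 and 1.18 CPM in KO, against 1.25, 1.36 and 1.87 CPM in WT. The groups overlapped, and the difference did not pass the test (log2 fold change -0.30, SE 0.35, edgeR adjusted p = 0.749). An interval of 2 SE on either side ran between -1.01 and 0.40 on the log2 scale, so a moderate difference in either direction was not detectable at 30 to 99 counts per library. The value was -0.74 (SE 0.33) with the proximal score in the fit, -0.07 without KO chow 1, -0.09 without WT chow 3 and -0.62 without KO chow 2, and it passed in none of these. Whether the genotype difference on HFD differed from that on chow was not tested, since the HFD difference chose the genes.

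Aqp3 was also higher on HFD than on chow within each genotype, as the same values show. In KO the mean was 4.001 ± 1.75 CPM on HFD and 1.22 ± 0.445 CPM on chow (SD, n = 3 each). In WT the mean was 14.7 ± 2.75 CPM on HFD and 1.497 ± 0.331 CPM on chow (SD, n = 3 each). Neither pair of groups overlapped. The fitted log2 fold change was 1.70 (SE 0.33) in KO, or 3.26-fold, and 3.28 (SE 0.32) in WT, or 9.72-fold. With the proximal score in the fit these were 1.43 in KO and 2.46 in WT. These values carry no p because they share the HFD libraries with the difference that chose Aqp3. In intestine measured as bulk RNA, a change in the share of a cell type and a change in RNA per cell cannot be told apart.

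**Figure D1:**
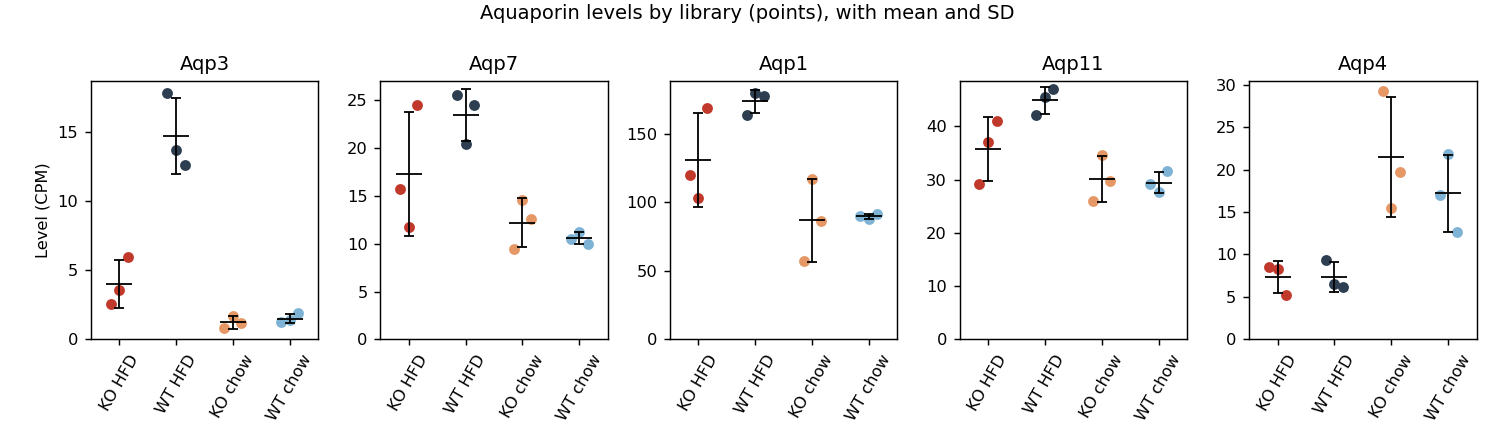
Levels in CPM of the 5 tested aquaporins on the vertical axes, with 1 point per library, the group mean as a long bar and the SD as the error bar, in the order KO HFD, WT HFD, KO chow and WT chow. Aqp3 averaged 4.001 CPM in KO HFD and 14.7 CPM in WT HFD, and Aqp4 was lower on HFD than on chow in both genotypes.

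Aqp7 is the other aquaglyceroporin and is best known for releasing glycerol from adipocytes. It lies at chr4:41033074-41048139 on the minus strand (mm10, ENSMUSG00000028427). It was at 15.7, 11.8 and 24.5 CPM in KO HFD, against 25.5, 20.4 and 24.5 CPM in WT HFD. Library 3 of KO HFD lay within the WT HFD values and the other KO HFD libraries below them (log2 fold change -0.44, SE 0.23, no test). This value was -0.31 with the muscle score, -0.40 with the proximal score, -0.23 without KO HFD 2 and -0.78 without KO HFD 3. On chow Aqp7 was at 9.49, 14.6 and 12.6 CPM in KO, against 10.5, 11.2 and 9.98 CPM in WT, and the groups overlapped (log2 fold change 0.21, SE 0.24, edgeR adjusted p = 0.739).

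In WT intestine Aqp7 rose on HFD, to 23.5 ± 2.72 CPM against 10.6 ± 0.619 CPM on chow (SD, n = 3 each). The log2 fold change was 1.15 (SE 0.23, edgeR adjusted p = 0.0105), or 2.22-fold, and the groups did not overlap. It was 0.90 with the proximal score and 1.09 with the muscle score in the fit, and passed with neither. In KO intestine it was at 17.3 ± 6.48 CPM on HFD and 12.2 ± 2.56 CPM on chow, groups that overlapped (log2 fold change 0.50, SE 0.23, edgeR adjusted p = 0.209). Whether the diet difference itself differed between the genotypes was not tested for any of the genes, since that contrast contains the one they were chosen by.

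Aqp3 and Aqp7 are separated by 44.6 kb on chromosome 4, on the same strand, with 0 protein-coding genes between them. Their protein-coding neighbours Nfx1, Nol6, Ube2r2 and Ubap2 passed the test in none of the 4 comparisons. On HFD against chow their WT log2 fold changes were 0.00, -0.01, 0.03 and 0.09, in that order. Their KO against WT values on HFD were 0.04, -0.05, -0.02 and 0.06. Ubap2 had the neighbours' clearest value in HFD against chow in KO, 0.27 (edgeR adjusted p = 0.113), with groups that did not overlap.

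**Figure D2:**
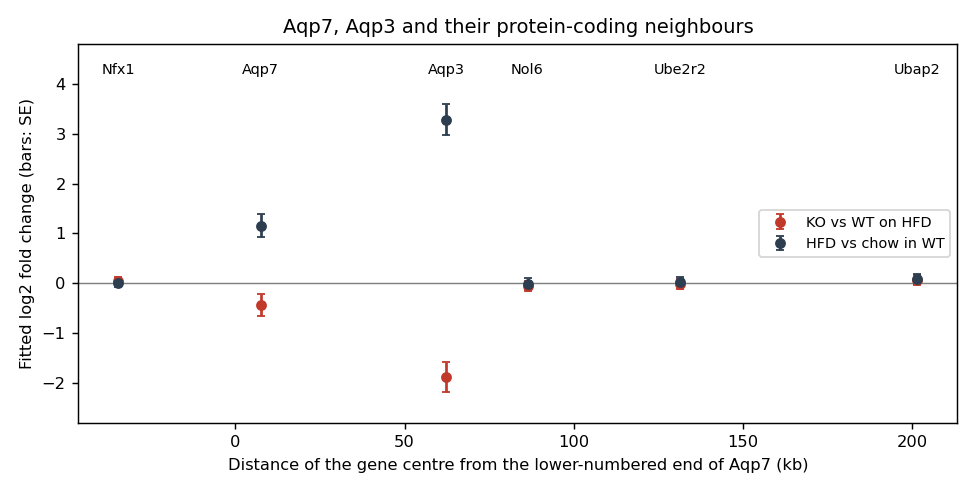
Fitted log2 fold change with SE bars for Aqp7, Aqp3 and 4 protein-coding neighbours, against the distance of each gene's centre in kb from the lower-numbered end of Aqp7. In HFD against chow in WT, Aqp7 was at 1.15 and Aqp3 at 3.28, while the neighbours were between -0.01 and 0.09; KO against WT on HFD is the comparison that chose Aqp3.

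Aqp1, the water channel of capillary endothelium and red blood cells that is also found in epithelia, had the highest level of the family. It lies at chr6:55336432-55348555 on the plus strand (mm10, ENSMUSG00000004655). It was at 120.1, 103.5 and 169 CPM in KO HFD, against 164, 179.8 and 177 CPM in WT HFD. Library 3 of KO HFD was above the lowest WT HFD library, so the groups overlapped (log2 fold change -0.41, SE 0.23, no test), and the fitted value was 0.04 with the muscle score in the fit. On chow Aqp1 was at 57.0, 117 and 86.6 CPM in KO, against 89.9, 87.9 and 91.2 CPM in WT. The KO chow libraries spread on both sides of the tightly grouped WT ones (log2 fold change -0.05, SE 0.24, edgeR adjusted p = 0.953).

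In WT intestine Aqp1 rose on HFD, to 174 ± 8.63 CPM against 89.7 ± 1.67 CPM on chow (SD, n = 3 each). The log2 fold change was 0.95 (SE 0.24, edgeR adjusted p = 0.0265), or 1.94-fold, with no overlap. It was 0.48 with the proximal score and 0.71 with the muscle score, and passed with neither. In KO intestine it was at 131 ± 34.2 CPM on HFD and 86.9 ± 30.1 CPM on chow, and the groups overlapped (log2 fold change 0.59, SE 0.24, edgeR adjusted p = 0.151). The 10 endothelial markers summed to 42.9 to 57.9 CPM in KO HFD, 54.8 to 58.4 CPM in WT HFD, 38.2 to 52.1 CPM in KO chow and 38.0 to 44.6 CPM in WT chow. By edgeR 3 of the 10 rose in WT on HFD, Kdr, Tek and Cdh5 (log2 fold changes 0.74, 0.71 and 0.65 against chow). At that adjusted threshold 6.80% of all tested genes rose. These calls were lost with the proximal score in the fit. Of the 12 fits that left out 1 library, Kdr held in 10, Tek in 8 and Cdh5 in 9. At an unadjusted p under 0.05, 8 of the 10 were higher, a count with no share of all genes beside it. The list median was 0.62 on the log2 scale. The part of the endothelial markers in the Aqp1 result was not tested. The 7 red blood cell markers summed to 8.13 to 22.44 CPM in WT HFD and 22.36 to 28.9 CPM in WT chow, so the groups overlapped narrowly. Of the 5 tested, 1 fell by edgeR, where 6.57% of all tested genes fell. The part of red blood cells in the Aqp1 result was not tested.

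Aqp4, a water channel known from astrocytes and from epithelia of stomach and colon, was the family member that was lower on HFD. Its gene is on chromosome 18 (ENSMUSG00000024411). It was at 8.50, 8.30 and 5.23 CPM in KO HFD, against 9.40, 6.50 and 6.16 CPM in WT HFD, and the groups overlapped (log2 fold change -0.00, SE 0.31, no test). With the muscle score in the fit this value was -0.82. On chow it was at 29.2, 15.5 and 19.7 CPM in KO, against 17.1, 21.8 and 12.7 CPM in WT (log2 fold change 0.33, SE 0.29, edgeR adjusted p = 0.656).

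Aqp4 fell on HFD in both genotypes. In KO it was at 7.34 ± 1.84 CPM on HFD and 21.5 ± 7.06 CPM on chow (SD, n = 3 each; log2 fold change -1.54, SE 0.30, edgeR adjusted p = 0.0151). In WT it was at 7.35 ± 1.78 CPM on HFD and 17.2 ± 4.59 CPM on chow (SD, n = 3 each; log2 fold change -1.22, SE 0.30, edgeR adjusted p = 0.0252). The WT value was -0.78 with the proximal score and -0.80 with the muscle score, and passed with neither, whereas the KO value was -1.37 and -2.15 and passed with both. In neither genotype did a HFD library reach the lowest chow library. Markers of enteric glia and neurons and of stomach epithelium were low over the 12 libraries, unlike the smooth muscle and endothelial markers given above. The 7 enteric glia and neuron markers summed to 0.63 to 1.83 CPM. The 4 measured markers of gastric parietal and surface cells, which belong to the stomach epithelium, summed to at most 0.253 CPM. Of the 8 colon markers 6 were tested, and 2 fell and 0 rose on HFD in each genotype by edgeR. Of all tested genes 4.76% fell in KO and 6.57% in WT. By DESeq2 1 fell in each genotype, and the list median was -0.51 in KO and 0.19 in WT. Car1 and Retnlb were lower on HFD in both genotypes, with Car1 at most 1.23 CPM in any library. Slc37a2 went the other way in WT, at 1.66 to 2.93 CPM on HFD and 0.958 to 1.63 CPM on chow. The part of any of these cell types in the Aqp4 result was not tested.

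Aqp11, which lies inside cells at the endoplasmic reticulum and whose loss in mice gives cystic kidneys, rose on HFD in WT by a smaller step. It lies at chr7:97724006-97738289 on the minus strand (mm10, ENSMUSG00000042797). It was at 29.2, 37.0 and 41.1 CPM in KO HFD, against 42.1, 45.6 and 47.0 CPM in WT HFD. Every KO HFD library was below every WT HFD library (log2 fold change -0.33, SE 0.12, no test), with a value of 0.03 when the muscle score was in the fit. Non-overlap in that direction was seen for 8.70% of all tested genes (18.0% in either direction), and for Aqp3 and Aqp11 here, a comparison that the choice of genes used. On chow Aqp11 was at 25.9, 34.6 and 29.7 CPM in KO, against 29.1, 27.6 and 31.5 CPM in WT (log2 fold change 0.03, SE 0.12, edgeR adjusted p = 0.939).

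In WT intestine Aqp11 was at 44.9 ± 2.55 CPM on HFD and 29.4 ± 1.97 CPM on chow (SD, n = 3 each). The log2 fold change was 0.61 (SE 0.12, edgeR adjusted p = 0.00604), or 1.52-fold, with no overlap. It was 0.33 with the proximal score and 0.41 with the muscle score, and passed with neither. In KO intestine it was at 35.8 ± 6.01 CPM on HFD and 30.1 ± 4.36 CPM on chow, with overlap (log2 fold change 0.25, SE 0.12, edgeR adjusted p = 0.216).

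Counted over the family, HFD against chow in WT gave 4 passing genes of the 4 tested, Aqp1, Aqp7 and Aqp11 higher and Aqp4 lower. Of all tested genes 13.4% passed in that comparison, 6.80% higher and 6.57% lower, and 37.9% had groups that did not overlap, 19.3% higher and 18.6% lower. HFD against chow in KO gave 1 of 4, Aqp4, which was lower. In that comparison 8.20% of all tested genes passed, 3.44% higher and 4.76% lower, and 25.8% had groups that did not overlap, 12.7% higher and 13.1% lower. KO against WT on chow gave 0 of 5 by edgeR, 0 of 5 at an unadjusted p under 0.05 and 0 of 5 by DESeq2, against 0.125% of all tested genes by edgeR, and the groups of all 5 overlapped, where 22.1% of tested genes did not. KO against WT on HFD passed for 0.290% of all tested genes, and the aquaporins were not tested there. The median log2 fold change of all tested genes was between -0.00 and 0.01 in the 4 comparisons.

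The 4 passing genes of HFD against chow in WT did not stay past the threshold in every fit. With the proximal score in the fit 0 of 4 passed, and with the muscle score 0 of 4 passed. All genes passing in that comparison went from 2353 to 37 with the proximal score and to 918 with the muscle score. The SE of all 4 grew with the proximal score, for Aqp7 from 0.23 to 0.36, so lower precision enters those lost calls. With WT chow 1 and KO chow 3 both left out, 0 of 4 passed in WT and 0 of 4 in KO, and without WT chow 1, 2 or 3, or WT HFD 2 or 3, 2 of 4 passed in WT.

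**Figure D3:**
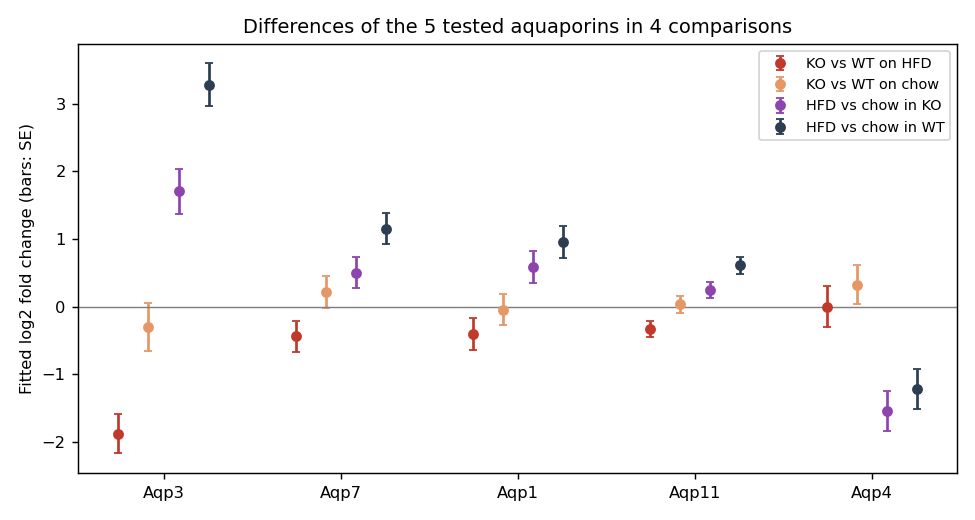
Fitted log2 fold change with SE bars on the vertical axis for the 5 tested aquaporins in 4 comparisons, each with the first-named group over the second. KO against WT on HFD chose the genes. Aqp4 was below 0 in HFD against chow in both genotypes (-1.54 in KO and -1.22 in WT), and the other 4 genes were above 0 in those comparisons.

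**Figure D4:**
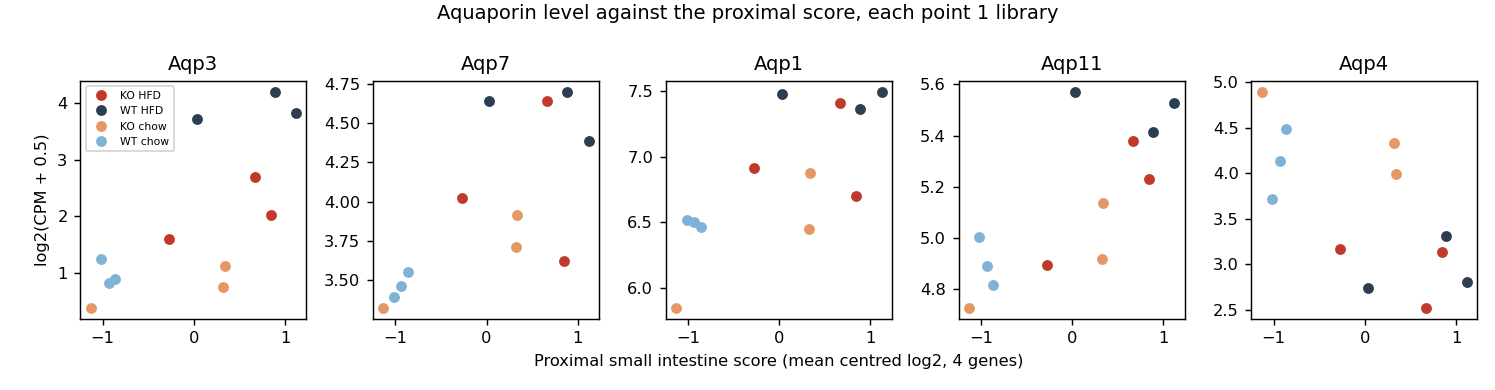
Level as log2(CPM + 0.5) on the vertical axes against the proximal small intestine score on the horizontal axes, with 1 point per library coloured by group. The WT chow libraries sit together at scores of -1.02 to -0.86, below every other library except KO chow 1 at -1.13.

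Levels of different genes were compared per kb of exon. In WT HFD, Aqp1 was at 66.1 CPM per kb, Aqp7 at 8.29, Aqp3 at 8.04, Aqp11 at 4.77 and Aqp4 at 1.18. Aqp7 and Aqp3 overlapped in that group, and the other neighbours in the order did not. In KO HFD the order was Aqp1 at 49.8 CPM per kb, Aqp7 at 6.13, Aqp11 at 3.798, Aqp3 at 2.19 and Aqp4 at 1.18. There Aqp11 overlapped both Aqp7 and Aqp3, and Aqp3 stayed above Aqp4 in every library, 1.38 being its lowest value and 1.36 the highest of Aqp4.

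In KO chow the levels were 33.1 CPM per kb for Aqp1, 4.32 for Aqp7, 3.44 for Aqp4, 3.20 for Aqp11 and 0.668 for Aqp3, and the middle genes overlapped. In WT chow they were 34.1 for Aqp1, 3.74 for Aqp7, 3.13 for Aqp11, 2.76 for Aqp4 and 0.818 for Aqp3, where Aqp11 and Aqp4 overlapped. Aqp3 was therefore the lowest of the 5 on chow in both genotypes, level with Aqp7 in WT HFD, and below Aqp7 and Aqp11 by its mean in KO HFD.

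**Figure D5:**
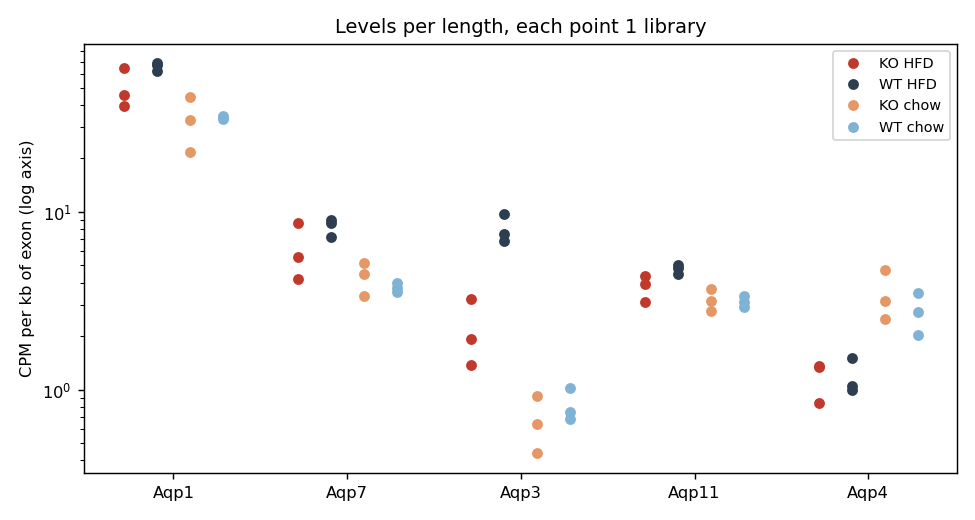
Level in CPM per kb of exon on a log axis for the 5 tested aquaporins, with 1 point per library coloured by group. Aqp1 was above every other aquaporin in every library, and Aqp3 averaged 2.19 in KO HFD, 8.04 in WT HFD, 0.668 in KO chow and 0.818 in WT chow.

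The rest of the family was close to absent. Aqp9, the glycerol channel of liver, had 36 counts summed over the 12 libraries and at most 0.203 CPM. Aqp12 had 7 counts and Aqp5 had 2, and Mip, Aqp2 and Aqp6 had 0, so none of these 6 was tested.

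Across the 12 libraries the members other than Aqp4 varied together. Pearson's r of log2(CPM + 0.5) was 0.933 for Aqp1 and Aqp7, 0.928 for Aqp3 and Aqp11, 0.914 for Aqp1 and Aqp11, 0.903 for Aqp1 and Aqp3, and 0.891 for Aqp3 and Aqp7. Aqp4 ran the other way, at -0.894 with Aqp1 and -0.812 with Aqp3. With Ppara, r was 0.793 for Aqp3, 0.735 for Aqp1, 0.732 for Aqp11, 0.651 for Aqp7 and -0.500 for Aqp4. The HFD difference that chose Aqp3 enters these values. They describe 12 libraries in 4 groups that share diet, genotype and library depth.

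Among 11598 genes the patterns most like that of Aqp3 were those of Isoc1 (r = 0.982), Acaa1b (0.977), Scp2 (0.972), Gtf3c3 (0.971) and Retsat (0.969), over the same 12 libraries. Acaa1b, a peroxisomal thiolase, was at 2.55 ± 1.18 CPM in KO HFD, 12.8 ± 4.804 in WT HFD, 0.789 ± 0.249 in KO chow and 0.922 ± 0.230 in WT chow (SD, n = 3 each). Retsat, a retinol saturase, was at 40.4 ± 9.03 CPM in KO HFD, 103 ± 36.4 in WT HFD, 18.9 ± 1.64 in KO chow and 21.2 ± 1.75 in WT chow. For Aqp7 they included Osbpl1a (0.967) and Ephx2 (0.966). For Aqp1 they were Guca2b (0.975), Ugt2b5 (0.971) and Slc47a1 (0.969), for Aqp11 Lipe (0.969), Cyp4v3 (0.954) and Cyp4f14 (0.948), and for Aqp4 they included S100a14 (0.967) and Tspan12 (0.965).

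Of 10 genes that use glycerol, all tested, 1 rose and 0 fell in HFD against chow in KO, where 3.44% of all tested genes rose. In WT 1 rose and 0 fell by edgeR, where 6.80% of all tested genes rose, and 2 were higher and 1 lower by DESeq2. These shares are near those of all genes. Gk, glycerol kinase, was at 339 ± 12.1 CPM in WT HFD and 260 ± 8.02 CPM in WT chow (SD, n = 3 each; log2 fold change 0.38, edgeR adjusted p = 0.00806), and its call held in 18 of 21 other fits, being lost without WT chow 1. Tkfc, which phosphorylates dihydroxyacetone and glyceraldehyde, rose in KO on HFD by 0.54 on the log2 scale (edgeR adjusted p = 0.0314), a call that held in 12 of 21 other fits and was lost without WT chow 1, KO chow 1, KO chow 3, KO HFD 2 or KO HFD 3. The calls of Gk and Tkfc were also lost with the proximal score in the fit, and without both WT chow 1 and KO chow 3. In KO against WT, 0 of 10 passed on either diet by edgeR or by DESeq2. At an unadjusted p under 0.05, 3 were lower on HFD, and 1 was higher and 3 lower on chow. These unadjusted counts have no share of all genes beside them. Gpd1, the cytosolic glycerol 3-phosphate dehydrogenase, was at 304 ± 26.2 CPM in KO HFD and 355 ± 6.46 CPM in WT HFD (edgeR adjusted p = 0.241). The list's median log2 fold change was -0.08 in KO against WT on HFD and 0.02 in HFD against chow in WT.

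Of 10 genes of lipolysis, the source of free glycerol, 9 were tested and Pnlip, pancreatic lipase, was at 0. On HFD 4 rose in WT and none fell against chow, with a list median of 0.67 on the log2 scale. These were Mgll, monoglyceride lipase (0.75, edgeR adjusted p = 0.00126), Ces2c, a carboxylesterase (0.69, edgeR adjusted p = 0.00143), Lipe, hormone-sensitive lipase (0.67, edgeR adjusted p = 0.00382), and Aadac, a microsomal esterase (2.91, edgeR adjusted p = 0.0268). By edgeR 6.80% of all tested genes rose there. The first 3 held whichever library was left out, and Aadac was lost without any 1 of WT chow 1, 2 or 3 or WT HFD 1 or 2. With the proximal score in the fit 0 of 9 passed in WT. For HFD against chow in KO 0 of 9 passed by edgeR, 0 at an unadjusted p under 0.05 and 0 by DESeq2, with a median of -0.10. For KO against WT on HFD 0 of 9 passed by edgeR, where 0.187% of all tested genes were lower. By DESeq2 2 were lower, where 290 of all genes passed in either direction. At an unadjusted p under 0.05, 5 were lower, a count with no share of all genes beside it. For KO against WT on chow 0 of 9 passed by edgeR, where 0.125% of all tested genes passed. By DESeq2 1 was higher, where 182 of all genes passed in either direction. At an unadjusted p under 0.05, 2 were higher, again with no share of all genes beside the count. Lipe and Aqp7 are also adipocyte genes, and Adipoq and Plin1, which define adipocytes, were at most 0.695 and 0.773 CPM in any library. The 7 adipocyte markers, most of whose sum was Lipe and Cidec, summed to 82.6 to 110 CPM in KO HFD, 105 to 138 CPM in WT HFD, 62.1 to 77.1 CPM in KO chow and 60.4 to 69.4 CPM in WT chow.

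Of 21 epithelial ion and water transport genes, 19 were tested. Sgk1, a kinase that raises sodium channel activity, rose on HFD in KO by 1.01 (edgeR adjusted p = 0.00488) and in WT by 1.92 on the log2 scale (edgeR adjusted p = 0.000195). Kcne3, a potassium channel subunit of crypt cells, fell on HFD in KO (-0.58, edgeR adjusted p = 0.0326) and in WT (-0.61, edgeR adjusted p = 0.0176). Scnn1a, a sodium channel subunit, fell on HFD in KO (-0.40, edgeR adjusted p = 0.0478). In WT on HFD the osmotic stress factor Nfat5 (0.57) and the chloride exchanger Slc26a3 (0.31) rose as well. Nfat5 also rose in KO against WT on chow (0.59, edgeR adjusted p = 0.0438), where 0.0795% of all tested genes rose, but that call held in 12 of 21 other fits and in 5 of the 12 that left out 1 library, those without KO chow 1, WT HFD 1, WT HFD 3, KO HFD 1 or KO HFD 3. In total 1 of 19 rose and 2 fell in KO on HFD, and 3 rose and 1 fell in WT on HFD, with medians of -0.04 and -0.02. Of all tested genes 8.20% passed in KO and 13.4% in WT. Sgk1 held in all 21 other fits in both genotypes. The 2 that fell in KO were 0 to 3 when 1 library was left out, and Scnn1a held in 2 of those 12 fits, those without KO chow 1 or WT HFD 1. Kcne3 held in 7 of the 12 in KO, being lost without WT chow 3, KO chow 1, KO chow 3, KO HFD 2 or KO HFD 3. In WT, Nfat5 held in all 12, Slc26a3 in 7 and Kcne3 in 8. Slc26a3 and Kcne3 were both lost without WT chow 2, WT chow 3, WT HFD 2 or WT HFD 3, and Slc26a3 also without WT chow 1. With the proximal score in the fit, the calls of Nfat5, Slc26a3 and Kcne3 given here were all lost.

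PPARA targets other than aquaporins served as a measure of the pathway that is known to control Aqp3 in mouse liver. Of 30 such genes 28 were tested, and Cyp4a14 was at 0 in every library. On HFD 3 were lower in KO than in WT and 0 higher, Acaa1b by -2.34, Acadvl, a very long chain acyl-CoA dehydrogenase, by -0.64 and Aldh3a2, a fatty aldehyde dehydrogenase, by -0.57 on the log2 scale, against 0.187% of all tested genes lower and 0.102% higher. At an unadjusted p under 0.05, 25 of 28 were lower there, a count with no share of all genes beside it. By DESeq2 11 were lower, where 290 of all genes passed in either direction, against 51 by edgeR. The list's median was -0.44. On chow 0 of 28 passed by edgeR and 0 by DESeq2, and the median was -0.13. There 5 were lower at an unadjusted p under 0.05, again with no share of all genes beside the count. HFD against chow gave 11 higher and 0 lower in KO, with a median of 0.41, and 22 higher and 0 lower in WT, with a median of 0.66, where 3.44% of all tested genes rose in KO and 6.80% in WT. The 11 in KO were 5 without KO chow 3 and 7 without KO chow 1, KO HFD 1 or KO HFD 3. Among them Angptl4, an inhibitor of lipoprotein lipase, rose by 1.26 in KO and by 2.22 in WT, and Fabp2, an intestinal fatty acid binding protein, by 0.78 in KO and by 1.43 in WT. Acaa1b rose by 3.77 in WT, beside 3.28 for Aqp3. With the proximal score in the fit 3 were higher in WT, and without both WT chow 1 and KO chow 3 the counts were 0 in KO and 12 in WT. The HFD libraries enter both the genotype and the diet comparisons, so these counts are not independent of each other. The count of 3 lower in KO on HFD ran between 0 and 11 over the other fits. It was 0 without WT chow 1, 2 or 3, KO chow 3, WT HFD 1 or 2, or KO HFD 1 or 2, and 7 without WT HFD 3 or KO HFD 3.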

How the data were processed

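Total RNA of mouse intestine was sequenced in 12 libraries, 3 in each of 4 groups, and gene levels were analysed from 1 deposited table of 47643 genes. The values are estimated counts (expected counts), as the authors deposited them, and 12.3% to 13.2% of genes in a library had any fractional part, with no tolerance. Per the submitters' processing notes, Trimmomatic, STAR, Picard and RSEM and the mm10 build were used; their versions, the strand setting and the annotation release are not given in the sources that were used. Of the gene IDs, 47224 matched GENCODE vM21 without their version suffix, and this gave symbols, positions and exon lengths. No annotated gene in the table overlapped any of the 6 genes.

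Counts were rounded. Genes passing filterByExpr (17602) were normalized by TMM and fitted with edgeR 4.0.16 (R 4.3.3, robust quasi-likelihood, 4 group means), with Benjamini-Hochberg adjustment over all tested genes and a threshold of 0.05. Aqp3 has no p in any comparison that uses HFD libraries, and the other genes have none in KO against WT on HFD. The shares of all tested genes that passed, rose or fell are for edgeR at the adjusted threshold. No such share is given at an unadjusted p. Alternatives were DESeq2 1.42.0, its size factors, no low-count filter, a minimum of 50 counts in 3 libraries, a fit of only the groups being set side by side, a replicate block, the smooth muscle or proximal score as a covariate, each library left out, and WT chow 1 with KO chow 3 left out. Correlations used log2(CPM + 0.5) among genes with a mean log2 CPM of at least 1.

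All 6 genes were named in every comparison, with the other aquaporins and Ppara. From each pathway list, up to 6 passing genes a direction with the smallest adjusted p could be named, and up to 3 non-passing ones of high level; markers were named where a result turned on them. The genes most like each aquaporin were the top 5 for Aqp3 and the top 3 for each other one, of which some are not reported here. The genes, the lists and the pair of libraries left out together were chosen with earlier results of these data known.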

Additional observations from a re-analysis of the deposited data

How the results depend on the processing

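Precision was limited by 3 libraries a group and, for Aqp3 on chow, by low counts. Over 21 alternatives the Aqp3 difference in KO against WT on HFD ran between -2.28 and -1.64 on the log2 scale, a range set by leaving out single libraries. In KO against WT on chow 0 aquaporins passed in all 21. In HFD against chow in KO, where Aqp4 passed, 0 passed without both WT chow 1 and KO chow 3 (Aqp4 adjusted p = 0.0781, edgeR), 2 passed with the smooth muscle score, where Aqp11 joined, and 1 to 2 passed when each library was left out, Aqp1 joining without KO chow 2. In HFD against chow in WT, where 4 passed, 2 passed with no filter (edgeR adjusted p of 0.0682 for Aqp1 and 0.0619 for Aqp4), 0 without both libraries, 0 with the muscle score, 0 with the proximal score, and 2 to 4 when each library was left out. Aqp11 passed there in 18 of 21 alternatives, Aqp7 in 17, Aqp4 in 13 and Aqp1 in 12. Among the tested differences, directions turned in KO against WT on chow, where none passed: leaving out each library, Aqp1 ran between -0.32 and 0.19, above 0 without KO chow 1, and Aqp11 between -0.085 and 0.13, below 0 without WT chow 2 or KO chow 2, while Aqp11 was at -0.078 with the muscle score and -0.11 with the proximal score. In KO against WT on HFD, which was not tested, Aqp1 was at 0.042 and Aqp11 at 0.034 with the muscle score, and Aqp4, near 0, took either sign.

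The count of all genes passing moved more. For KO against WT on HFD it was 51, and it was 290 by DESeq2, 94 with no filter, 6 with only the groups compared, 3 without both libraries, 1582 with the muscle score and 5 to 173 when each library was left out. For KO against WT on chow it was 22, and it was 182 by DESeq2, 49 with no filter, 54 with only the groups compared, 1 without both libraries, 6 with the proximal score, 14 with the replicate block and 1 to 517 when each library was left out. For HFD against chow in KO it was 1444, and it was 335 with only the groups compared, 185 without both libraries, 2709 with the muscle score, 683 with the proximal score and 451 to 2551 when each library was left out. For HFD against chow in WT it was 2353, and it was 458 without both libraries, 918 with the muscle score, 37 with the proximal score and 895 to 3089 when each library was left out. The cause was not tested. Replicate numbers were shared by the groups, but same-numbered libraries deviated together by correlations of only -0.111 to 0.143, so the numbers were not taken as pairs. With the replicate block the aquaporins passing stayed at 0 in KO against WT on chow, 1 in HFD against chow in KO and 4 in HFD against chow in WT, and all genes passing were 41, 14, 1463 and 2439.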
